A study of Mus musculus with 6 samples.

Results

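The 10 genes described here encode cytosolic aminoacyl-tRNA synthetases, the enzymes that load amino acids onto their tRNAs: Aars (alanine), Gars (glycine), Sars (serine), Nars (asparagine), Wars (tryptophan), Yars (tyrosine), Mars (methionine), Tars (threonine), Eprs (glutamate and proline) and Iars (isoleucine). They were taken by gene symbol, and all 10 were found among the 23227 genes of each exonic table and the 23231 genes of each intronic table. Total RNA was sequenced after depletion of ribosomal RNA from immortalized murine mesenchymal stem cells; the sample titles speak of fibroblasts. The labels name 6 groups: Dicer KO cells, untransfected Dicer WT cells, Dicer WT cells over-expressing the transcription factor Pbx3, Sox9 or Tead4, and Dicer WT cells given the empty vector. All transfected cells therefore carry intact Dicer, and no over-expression was made in Dicer KO cells. The KO and WT lines are both monoclonal, so an effect of the genotype and a difference between these clones cannot be told apart. The labels give neither the strain nor the age of the animals behind the lines, nor the vector or the time after transfection.

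Each synthetase recognises its own amino acid and the matching tRNAs, and a shortage of charged tRNA is sensed by the kinase Gcn2 (Eif2ak4), which phosphorylates the translation factor eIF2α. Translation of Atf4 then increases, and this factor, often paired with a C/EBP protein, raises transcription of amino acid synthesis enzymes, amino acid transporters and many cytosolic synthetases. Several synthetases, Eprs, Iars and Mars among them, sit in a large complex held together by the scaffold proteins Aimp1, Aimp2 and Eef1e1, while most of the others act outside it. Dicer cuts precursor RNAs into mature microRNAs, so the KO cells are studied as cells that lack this class of regulator.

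Every value below comes from 2 libraries per group, recovered from the deposited group means. Exonic depth ran from 6130267 to 23501655 gene reads per library and intronic depth from 3156973 to 10205497. Normalised counts are reads divided by the authors' size factors. Changes are limma log2 fold changes of the normalised count plus 1, given with their standard error, and "rose" or "fell" is used where the limma adjusted p, over all genes with a mean of at least 50, was under 0.05. All 10 synthetases passed this minimum in all 8 tables. Of 12 stromal marker genes 1, Thy1, was at 0 reads in every group. The summed stromal level was 6514 and 5816 exonic RPM (reads scaled to the total exonic reads of the library) in Dicer KO libraries, against 7979 and 7113 in Dicer WT libraries. In KO libraries most of this sum came from Vim (2718 and 2078), Itgb1 (1752 and 1612) and Col1a2 (1222 and 1108). Ly6a (3.28 and 2.85) and Nt5e (7.28 and 5.70) were low there. The summed blood markers reached at most 2.80 RPM in any library, with Ptprc and Cd3e at or near 0.

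Because the Atf4 route is read from promoter sequence, the stretch from 150 bases before the RefSeq transcription start to 30 bases from it is shown for the 5 synthetases that carry a C/EBP-ATF composite element, and for Sars, which had the largest change in Dicer KO cells and carries none. The motif searched was TGATGNAA on both strands, and its matches are in capitals, which appear as the reverse complement where the element lies on the opposite strand. The sequences are from RefSeq on build GRCm38.p6, 5′ to 3′ along each gene, and lie at chr8:111033692-111033871 on the plus strand for Aars, chr6:55037851-55038030 on the plus strand for Gars, chr15:11399629-11399808 on the minus strand for Tars, chr4:129189753-129189932 on the plus strand for Yars, chr13:49681980-49682159 on the plus strand for Iars and chr3:108445230-108445409 on the minus strand for Sars.
Aars: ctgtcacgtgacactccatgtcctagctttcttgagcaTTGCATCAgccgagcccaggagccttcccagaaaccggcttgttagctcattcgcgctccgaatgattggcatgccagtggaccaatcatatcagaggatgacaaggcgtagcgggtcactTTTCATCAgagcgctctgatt
Gars: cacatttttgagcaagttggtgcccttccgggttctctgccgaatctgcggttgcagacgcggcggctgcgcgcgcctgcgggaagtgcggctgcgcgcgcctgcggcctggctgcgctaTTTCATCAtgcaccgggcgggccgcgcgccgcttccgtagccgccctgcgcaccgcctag
Tars: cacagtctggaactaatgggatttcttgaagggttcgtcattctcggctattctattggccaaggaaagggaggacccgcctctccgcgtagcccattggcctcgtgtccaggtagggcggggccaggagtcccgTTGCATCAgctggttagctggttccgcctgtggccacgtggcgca
Yars: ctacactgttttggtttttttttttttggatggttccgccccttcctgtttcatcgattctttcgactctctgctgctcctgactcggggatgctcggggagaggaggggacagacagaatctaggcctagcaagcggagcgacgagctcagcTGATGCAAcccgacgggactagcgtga
Iars: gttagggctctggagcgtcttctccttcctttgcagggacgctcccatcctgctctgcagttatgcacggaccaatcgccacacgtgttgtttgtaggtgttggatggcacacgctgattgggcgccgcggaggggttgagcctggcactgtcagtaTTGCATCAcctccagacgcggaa
Sars: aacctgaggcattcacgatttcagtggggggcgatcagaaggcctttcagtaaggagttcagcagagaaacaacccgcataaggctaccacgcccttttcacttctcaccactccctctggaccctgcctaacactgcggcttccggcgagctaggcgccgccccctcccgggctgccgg
Of the 10 genes, 8 were matched to a RefSeq window of 300 bases around the start (250 before it and 50 from it). Nars and Wars had no matched window and were not searched. Of the 8 matched genes 5 held TGATGNAA, against 3.97% of 32841 RefSeq windows. Aars held 2 matches, of which the upstream one starts 112 bases before the start. The stricter form TGATGCAA was present in 4 of the 8, against 0.895% of all windows, the E-box CACGTG in 3 of 8, against 7.15%, and the cAMP response element TGACGTCA in 0 of 8, against 1.79%. The matched cytosolic synthetases outside the 10 held TGATGNAA in 0 of 5 windows, the mitochondrial ones in 0 of 14, and a list of amino acid and stress response genes in 6 of 19. The stricter form is contained in TGATGNAA, so these 2 counts share matches. A match is a description of letters in this window, and binding was not measured here.

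In Dicer KO cells, set against Dicer WT cells, most synthetase mRNAs stood higher, with Sars furthest. Exonic reads of 4 of the 10 genes rose (Sars, Gars, Eprs and Wars) and 0 fell, where 9.28% of all 10706 genes tested rose and 7.36% fell. Both KO libraries lay above both WT libraries for 8 of the 10, a pattern that 33% of all genes showed. The median log2 fold change was 0.56 over the 10 genes and 0.01 over all genes tested. In RNA from a whole culture, more cells of a kind and more RNA per cell cannot be told apart.

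Sars, the serine enzyme, which also charges the selenocysteine tRNA, had 12344 and 10960.1 normalised counts in the Dicer KO libraries, against 5687 and 5365 in the Dicer WT libraries. The groups were far apart, and the mean in KO cells was 2.11 times that in WT cells. Sars rose by 1.07 ± 0.13 (limma adjusted p = 0.0101). Gars, the glycine enzyme, had 13716 and 12070.3 normalised counts in KO libraries, against 8167 and 7153 in WT libraries. Gars rose by 0.75 ± 0.15 (limma adjusted p = 0.0301), and its libraries did not overlap between genotypes. Its product works in the cytosol and in mitochondria from a single gene. Eprs, the fused glutamate and proline enzyme, had 23247 and 20956 normalised counts in KO libraries, against 15096 and 13777 in WT libraries. It rose by 0.61 ± 0.14 (limma adjusted p = 0.0442), again without overlap. Wars, the tryptophan enzyme, which interferon-γ induces in human cells, had 1723 and 1878 normalised counts in KO libraries, against 1254 and 1147 in WT libraries. It rose by 0.58 ± 0.14 (limma adjusted p = 0.0447) from the lowest level per exon length of the 10.

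For the next 4 genes the KO libraries lay above the WT libraries, and the test was not passed. Nars, the asparagine enzyme, had 11518 and 9799 normalised counts in KO libraries, against 7858 and 6367 in WT libraries, a difference of 0.59 ± 0.17 (limma adjusted p = 0.0722). Aars, the alanine enzyme, had 22003 and 20007 in KO libraries, against 14424 and 14717 in WT libraries, a difference of 0.53 ± 0.14 (limma adjusted p = 0.0567). These 2 differences are about the size of those of Wars and Eprs, which lie just on the other side of the threshold. Iars, the isoleucine enzyme, had 5512 and 4997 in KO libraries, against 4100.1 and 3506 in WT libraries (0.47 ± 0.14, limma adjusted p = 0.0832). Yars, the tyrosine enzyme, had 2288 and 2593 in KO libraries, against 1807 and 1835 in WT libraries (0.42 ± 0.13, limma adjusted p = 0.0911). The remaining pair overlapped between genotypes. Tars, the threonine enzyme, had 9925 and 7249.6 normalised counts in KO libraries, against 7702 and 5807 in WT libraries (0.34 ± 0.22, limma adjusted p = 0.328), so library 1 of the WT group lay above library 2 of the KO group. Mars, the methionine enzyme that charges the initiator tRNA, had 2641 and 2224 in KO libraries, against 2496 and 2124 in WT libraries (0.07 ± 0.16, limma adjusted p = 0.775). Mars was the smallest difference of the 10.

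**Figure D1:**
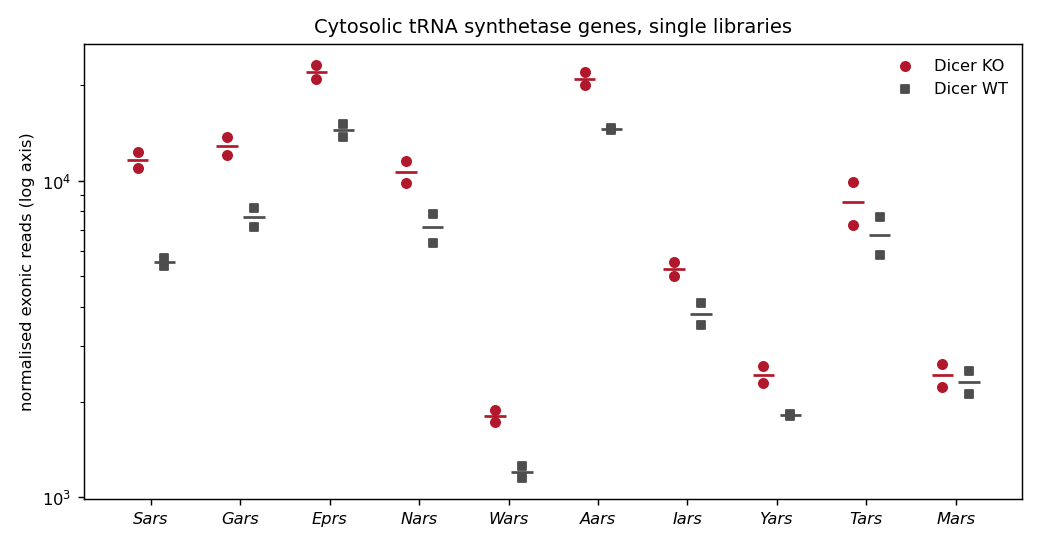
Normalised exonic reads (log axis) of the 10 synthetase genes in single libraries, with red circles for Dicer KO, grey squares for Dicer WT and short lines at the group means. KO points lie above WT points for 8 genes, and the 2 genotypes overlap for Tars and Mars.

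How many genes passed depended on single libraries. Without KO library 1 the count was 0, where 5% of all genes passed in the same fit, and without KO library 2 it was 1, where 5.58% did. Without WT library 2 the count was 1, where 16.9% of all genes passed, and without WT library 1 it was 3, where 17.8% did. Sars was the gene that kept its call in all but the first of these, where its limma adjusted p was 0.0729. Sars and Gars, 2 of the 10, have in the authors' deposited table an adjusted p under 0.05, where 11% of the 15732 genes with reads do.

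The members differed among themselves. Relative to Mars in the same library, Sars had 4.67 and 4.93 times as many exonic reads in the KO libraries, against 2.28 and 2.53 in the WT libraries. This ratio needs no scaling between libraries, and the groups did not overlap. Sars and Mars were picked after their values were seen, as the genes with the largest and the smallest difference. A gap between the groups is therefore largely built in. The share of other gene pairs that show such a gap was not counted. By catalytic class, 2 of the 5 class II enzymes (Sars and Gars, besides Aars, Nars and Tars) rose, with a median of 0.59. Of the 4 class I enzymes (Wars, Yars, Mars and Iars) 1, Wars, rose, with a median of 0.44, and Eprs holds a domain of each class. Of the 3 enzymes of the multi-synthetase complex 1, Eprs, rose (median 0.47), and of the 7 outside it 3 rose (median 0.58). Of the 5 genes with TGATGNAA in the promoter stretches above 1, Gars, rose (median 0.47), and of the 3 matched genes without it 2, Sars and Eprs, rose (median 0.61). These counts are read against the 9.28% of all 10706 genes tested that rose. The differences between these subsets were not tested. Levels also differed widely: in exonic RPM divided by exon length in kilobases, Gars stood highest in KO cells at 252 and Wars lowest at 29.2, and in WT cells Gars was at 151 and Wars at 19.7. The exon lengths are from GENCODE M21 on GRCm38, since the annotation behind the files is not named in the sources used here.

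Intronic reads, which come mostly from unspliced transcripts, gave a similar median with fewer genes past the test. Sars rose here too, by 1.03 ± 0.15 (limma adjusted p = 0.0270), and was the only 1 of the 10 to pass, where 2.86% of all 10215 genes tested rose. Its intronic counts were 2901 and 2405 in Dicer KO libraries, against 1345 and 1239.7 in Dicer WT libraries, with no overlap. In 6 of the 10 genes both KO libraries lay above both WT libraries, as in 29.2% of all genes. The median over the 10 was 0.54, against 0.02 over all genes tested. Wars had 1128 and 1069 intronic counts in KO libraries, against 731 and 626 in WT libraries (0.70 ± 0.14, limma adjusted p = 0.0585). Nars had 3089 and 2425 in KO libraries, against 2097 and 1427 in WT libraries (0.66 ± 0.24). The Gars difference was 0.61 ± 0.16, that of Eprs 0.57 ± 0.17 and that of Aars 0.50 ± 0.15, each without overlap between genotypes. Tars differed by 0.44 ± 0.24, Yars by 0.27 ± 0.19 and Iars by 0.21 ± 0.18, with overlapping libraries. Mars had the only negative value, -0.21 ± 0.18, with 1228 and 1029.6 intronic counts in KO libraries, against 1452 and 1165 in WT libraries. The intronic Sars call was lost without KO library 1 and without KO library 2, leaving 0 genes, where 1.59% and 2.18% of all genes passed. Without WT library 1 Nars and Wars passed as well, making 3, where 9.35% of all genes passed. The authors' deposited table has 1 of the 10, Sars, under 0.05, where 4.52% of its 18482 intronic genes with reads are.

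The exonic change minus the intronic change asks whether mature mRNA moved beyond its unspliced precursor, as it would for transcripts that microRNAs destabilise. It was taken library by library, but no label ties an exonic to an intronic library. They were matched by likeness in the data, which can narrow the spread. The standard errors and p-values of this difference therefore depend on an inferred pairing, while its size does not. By limma 0 of the 10 genes passed, where 6.99% of all 9402 genes did. At an unadjusted p under 0.05 there were 2, Mars and Iars, where 21.4% of all genes lay. Mars had the largest difference, 0.28 ± 0.09 (limma adjusted p = 0.101), followed by Iars at 0.26 ± 0.10 (limma adjusted p = 0.158). For Sars, whose exonic and intronic changes were both near a doubling, the difference was 0.04 ± 0.09. Introns held between 17.1% of the gene's reads for Aars and 37.4% for Wars in KO cells, and between 18.01% and 36.6% in WT cells. In GENCODE M21 a protein-coding gene overlaps several of these loci on the opposite strand, Ddit3 at Mars, Wdr25 at Wars and C77080 at Yars. Exosc6 overlaps Aars on the same strand. Small RNA genes lie on the same strand at Wars (Gm22079) and Iars (Gm25394 and Gm23482). Others lie on the opposite strand at Aars (Gm24103) and Sars (Gm22942). The libraries were strand-specific, but whether counting used the strand, and how reads shared with other genes or copies were treated, is not given in the sources used here.

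**Figure D2:**
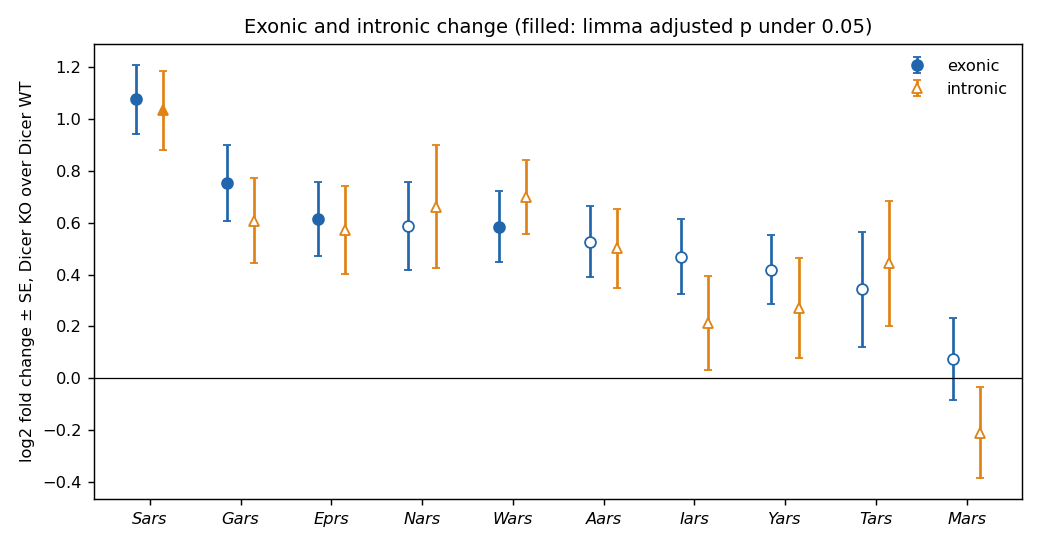
Log2 fold change of Dicer KO over Dicer WT, with limma standard errors, in exonic reads (blue circles) and intronic reads (orange triangles) for the 10 genes, filled where the limma adjusted p was under 0.05. Sars is filled in both kinds of reads, at 1.07 and 1.03, and Gars, Eprs and Wars in exonic reads.

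Among the other genes of the same machinery, the remaining cytosolic synthetases had a median close to that of the 10, and the mitochondrial set a median near 0. Of 10 other cytosolic synthetases 2 rose and 0 fell in exonic reads, Vars (valine) by 0.77 ± 0.14 (limma adjusted p = 0.0233) and Cars (cysteine) by 0.74 ± 0.16 (limma adjusted p = 0.0374), and their median was 0.50. These and the counts of the lists that follow are read against the same 9.28% of all genes that rose. The 4 with the smallest differences, singled out after their values were seen, were Kars (0.04 ± 0.15), Farsa (0.11 ± 0.14), Qars (-0.10 ± 0.13) and Dars (-0.09 ± 0.30). The scaffold genes Aimp1, Aimp2 and Eef1e1 gave 0 of 3, with a median of 0.16. Of 16 mitochondrial synthetases tested 2 rose, Wars2 by 0.89 ± 0.16 (limma adjusted p = 0.0259) and Iars2 by 0.66 ± 0.13 (limma adjusted p = 0.0306), and the median was 0.02. The elongation factors that receive charged tRNA and move the ribosome gave 0 of 5, with a median of -0.23. The difference between these lists was not tested.

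The lists of amino acid supply had larger medians than the synthetases, and all lists were chosen with earlier results of these data known. The exonic counts below are read against the 9.28% of all genes that rose and the 7.36% that fell. In the list of amino acid and stress response genes 11 of 18 tested rose and 0 fell (median 0.73). The largest were Chac1, a glutathione-degrading enzyme, at 2.64 ± 0.19, Trib3, a pseudokinase, at 2.46 ± 0.19, the transcription factor Atf3 at 1.82 ± 0.30 and Phgdh, the first enzyme of serine synthesis, at 1.57 ± 0.12, with limma adjusted p of 0.0036, 0.0046, 0.0192 and 0.0046. This pathway makes serine, the amino acid that Sars loads, and through it glycine, which Gars loads. Amino acid supply was not measured, and a link to the synthetase values was not tested. Atf4 itself had 12710.3 and 12107 normalised counts in Dicer KO libraries, against 10123 and 9090.2 in Dicer WT libraries, a difference of 0.37 ± 0.13 that did not pass (limma adjusted p = 0.120). Of 9 amino acid transporters 4 rose (median 0.92): the cystine carrier Slc7a11 by 3.61 ± 0.23, Slc7a3 by 2.72 ± 0.43, Slc7a5 by 1.22 ± 0.18 and Slc7a1 by 1.04 ± 0.17, with limma adjusted p of 0.0034, 0.0182, 0.0155 and 0.0197. Slc7a3 rested on few reads in WT cells, 12.3 and 22.3 normalised counts. Of the 4 eIF2α kinases 1 rose, Eif2ak2 (PKR, which double-stranded RNA activates), by 0.71 ± 0.15 (limma adjusted p = 0.0387), and the Gcn2 gene Eif2ak4 differed by 0.44 ± 0.15 (limma adjusted p = 0.112). Beside Wars, 5 of 8 other interferon-inducible genes rose and 1 fell. Psmb8 rose by 1.88 ± 0.12, Cxcl10 by 2.03 ± 0.27, Gbp3 by 2.56 ± 0.24 and Gbp2 by 1.80 ± 0.25, with limma adjusted p of 0.0034, 0.0113, 0.0058 and 0.0137, while Tap1, a subunit of the antigen peptide transporter, fell by 0.89 ± 0.13 (limma adjusted p = 0.0146). Stromal genes moved between the same libraries: of 11 tested 1 rose, Vcam1 by 1.55 ± 0.14, and 3 fell, Col1a1 by 2.31 ± 0.18, Ly6a by 1.17 ± 0.26 and Col1a2 by 0.96 ± 0.15, with limma adjusted p of 0.0050, 0.0046, 0.0407 and 0.0190. Their part in the synthetase values was not tested.

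**Figure D3:**
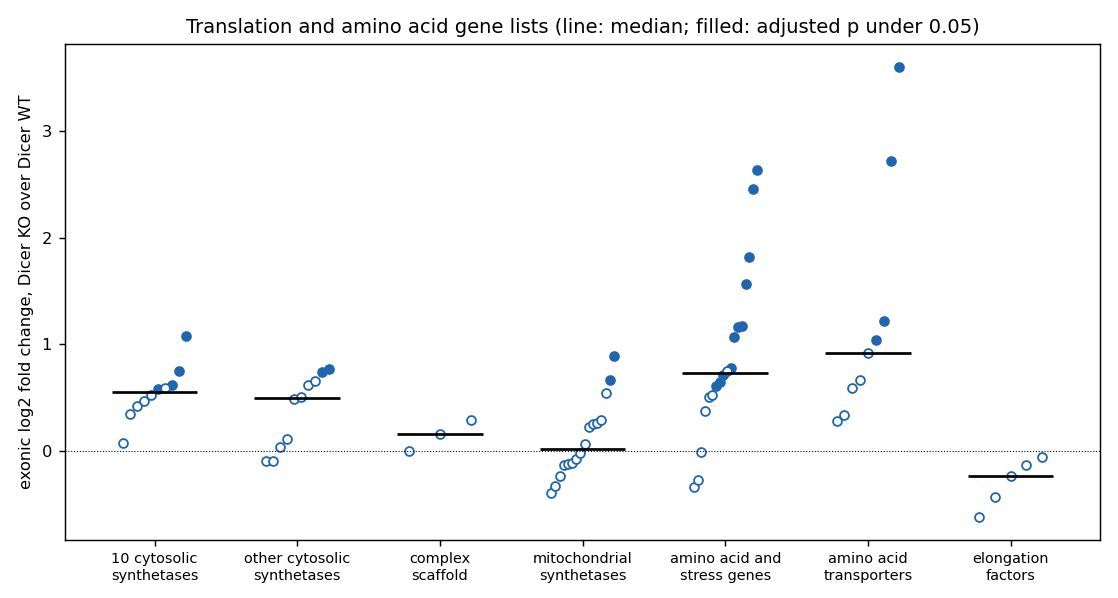
Exonic log2 fold change of Dicer KO over Dicer WT for each gene of 7 lists, filled where the limma adjusted p was under 0.05, with a line at each list's median. The medians are 0.56 for the 10 synthetases, 0.50 for the other cytosolic ones, 0.02 for the mitochondrial ones, 0.73 for amino acid and stress genes, 0.92 for transporters and -0.23 for elongation factors.

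Set across all 6 groups, the low end belonged to untransfected Dicer WT cells. The tables were normalised separately, and no deposited comparison sets untransfected against transfected cells. Levels across the groups are therefore given as exonic RPM within each library, with no test. The 10 genes together took 0.487% and 0.434% of exonic reads in Dicer KO libraries. They took 0.368% and 0.398% in Pbx3, 0.369% and 0.324% in Sox9, 0.403% and 0.379% in Tead4 and 0.373% and 0.370% in vector libraries. In untransfected Dicer WT libraries they took 0.313% and 0.2996%. The KO libraries were the highest of the 12 and the WT libraries the lowest. Group by group, Dicer WT had the lowest mean for 8 of the 10 genes. Dicer KO had the highest for 5 (Sars, Gars, Eprs, Aars and Wars), Tead4 for 3 (Nars, Mars and Iars) and Pbx3 for 2 (Yars and Tars). The share of all genes with these groups at either end was not counted, and neighbouring groups often overlapped.

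Beside vector libraries, in place of untransfected WT libraries, fewer synthetases stood apart in the KO libraries. Sars had 573 and 512 RPM in KO libraries, against 259 and 279 in vector libraries and 259.8 and 260.1 in WT libraries. The other 5 groups lay close together for Sars, between 259 and 305. Gars had 637 and 564 RPM in KO libraries, against 412 and 444 in vector libraries and 373 and 347 in WT libraries. Eprs had 1079 and 979.7 RPM in KO libraries, with its highest vector library at 909.9 and its highest WT library at 689.7. Aars had 1021 and 935 RPM in KO libraries, where its highest library in the other 5 groups was a Tead4 library at 803. The KO libraries lay above the vector libraries for these 4 genes and for Wars, 5 in all, where 34.5% of 9585 genes with a mean of at least 50 in every exonic table lay above and 33% below. They overlapped the vector libraries for Nars, Yars, Tars and Iars. For Mars they lay below, at 123 and 104 RPM, against 147 to 157 in vector libraries. The Nars order shows how neighbours run together: Tead4, Pbx3 and Dicer KO overlapped each neighbour in turn, the vector libraries (469.8 to 486) overlapped the KO libraries (458 to 535), and Sox9 (388 to 436) and Dicer WT (309 to 359) stood apart below them. Vector libraries lay above untransfected WT libraries for 8 of the 10 genes and below for 1, Aars, where 25.5% of the same 9585 genes lay above and 26.5% below. Transfection, culture and sequencing run cannot be told apart in that contrast.

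**Figure D4:**
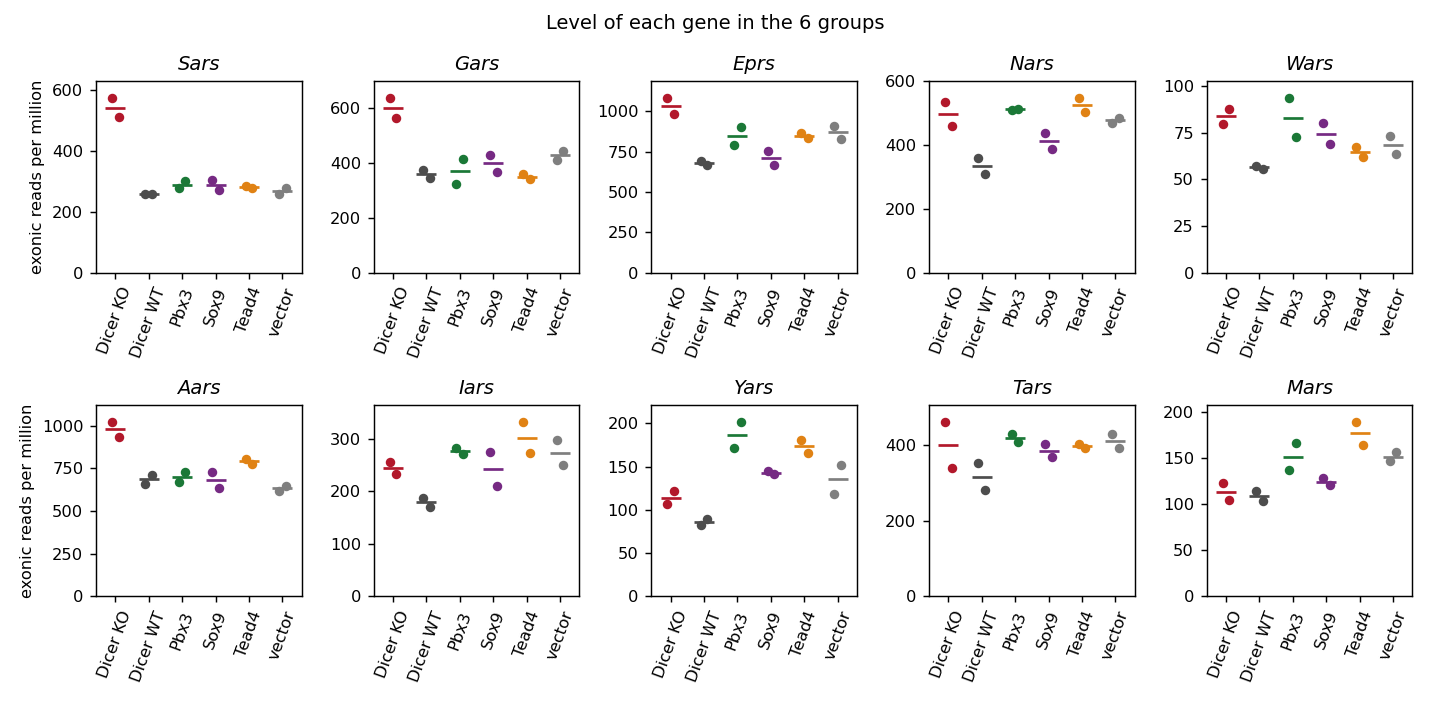
Level in exonic RPM, for the 10 genes in single libraries (points) and group means (lines) for Dicer KO, Dicer WT, Pbx3, Sox9, Tead4 and vector. Sars stands at 512 and 573 in KO and between 259 and 305 elsewhere, whereas the group means of Mars and Yars are higher in the transfected groups than in KO.

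Over-expression of Pbx3, Sox9 or Tead4 was compared with vector, the same 2 vector libraries serving all 3 comparisons. By limma 0 of the 10 synthetases passed in exonic or intronic reads of any of the 3. In Pbx3 cells the background was itself near nothing, 0.0102% of 9826 genes in exonic reads and 0% in intronic reads. At an unadjusted p under 0.05 the exonic count was 1, Yars, where 2.37% of genes lay, and the intronic count 0, where 2.90% lay. The authors' test called 0 in both, where it called 0.102% and 0.108% of genes with reads. Yars had 1751 and 1939.8 normalised counts in Pbx3 libraries, against 1202 and 1459 in vector libraries, a difference of 0.48 ± 0.18 (unadjusted p = 0.0387 and adjusted p = 0.9998 by limma). The Pbx3 libraries lay above the vector libraries for 4 genes (Aars, Sars, Nars and Yars) and below for 1, Gars, where 12.1% of genes lay above and 12.5% below. Gars had 3293 and 4014 normalised counts in Pbx3 libraries, against 4178 and 4277 in vector libraries, a difference of -0.22 ± 0.17. The median over the 10 was 0.07.

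In Sox9 cells the exonic differences lay on both sides of vector, with 4 of the 10 above 0 and none past the test. In intronic reads 1 of the 10 was above 0. By limma 0.547% of 9698 genes passed in exonic reads and 1.99% in intronic reads. At an unadjusted p under 0.05 the exonic count was 0, where 13% of genes lay, and the intronic count 1, Nars, where 17.2% lay. The authors' test called 0 in both, where it called 1.14% and 1.23% of genes. The largest exonic differences were those of Mars and Eprs. Mars had 1022 and 999.7 normalised counts in Sox9 libraries, against 1244 and 1254 in vector libraries (-0.31 ± 0.15, limma adjusted p = 0.443). Eprs had 6035 and 5552 in Sox9 libraries, against 7721 and 6625 in vector libraries (-0.31 ± 0.19, limma adjusted p = 0.529). With Gars and Nars these made 4 genes whose Sox9 libraries lay below both vector libraries, and Aars and Sars lay above, where 23.4% of genes lay below and 21.8% above. Nars was 743 and 763 in intronic reads of Sox9 libraries, against 994 and 914 in vector libraries (-0.34 ± 0.15, limma adjusted p = 0.291). The exonic median over the 10 was -0.12, and -0.02 over all genes.

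In Tead4 cells the synthetases lay on both sides of vector, again with none past the test. By limma 0.143% of 9796 genes passed in exonic reads and 1.61% in intronic reads. At an unadjusted p under 0.05 the exonic count was 0, where 15.9% of genes lay, and the intronic count 1, Gars, where 15.5% lay. The authors' test called 0 in both, where it called 1.70% and 1.07% of genes. Yars had 1766 and 1579 normalised counts in Tead4 libraries, against 1184 and 1442 in vector libraries (0.35 ± 0.15, limma adjusted p = 0.338). Without vector library 2, Yars passed at 0.50 (limma adjusted p = 0.0066), and it was the only 1 of the 10 to do so, where 24.2% of all genes passed in that fit. Aars had 7843 and 7422 in Tead4 libraries, against 6163 and 6154 in vector libraries (0.31 ± 0.13, limma adjusted p = 0.320). Gars had 3517 and 3247 in Tead4 libraries, against 4114 and 4225 in vector libraries (-0.30 ± 0.13, limma adjusted p = 0.325). The Tead4 libraries lay above for 5 genes (Aars, Sars, Nars, Yars and Mars) and below for Gars alone, where 25.2% of genes lay above and 24% below. In normalised counts Gars thus lay below vector in all 3 comparisons, which share the vector libraries. Sars lay above it by 0.11 ± 0.15 in Pbx3 cells, 0.08 ± 0.16 in Sox9 cells and 0.06 ± 0.12 in Tead4 cells. Each Sars difference was below its standard error. Both genes were singled out after their values were seen, and the share of all genes with such a pattern was not counted. In exonic RPM, Gars overlapped vector (412 and 444) in Pbx3 (323 and 417) and in Sox9 libraries (430 and 368).

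**Figure D5:**
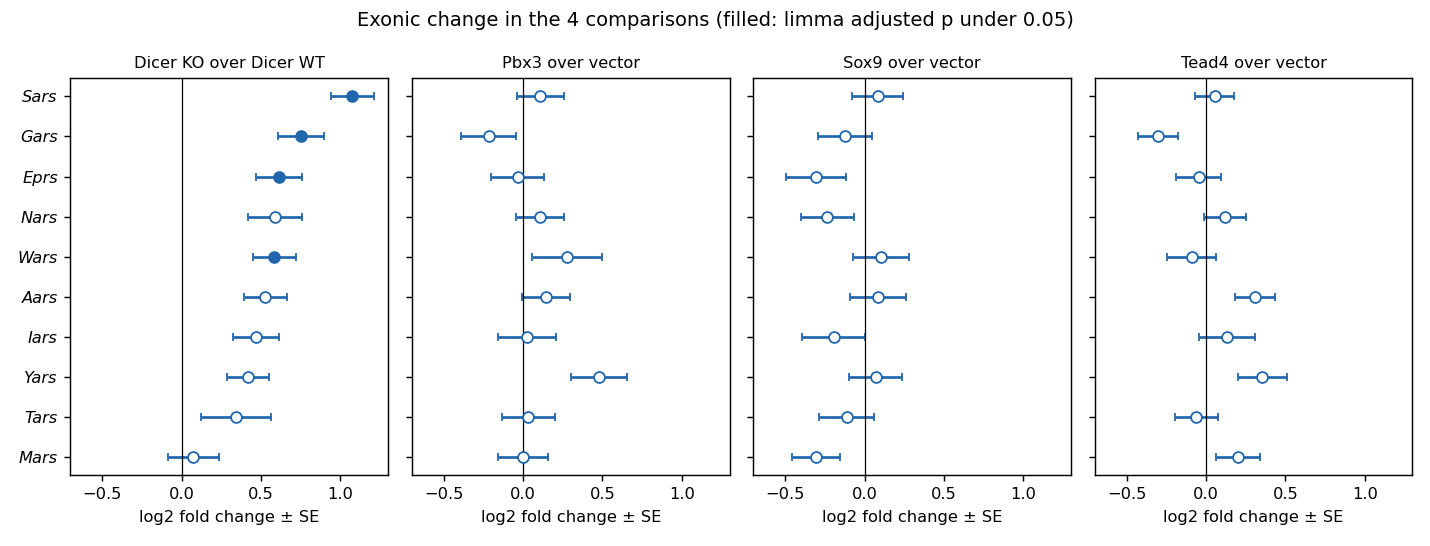
Exonic log2 fold change with limma standard error for the 10 genes in 4 comparisons, filled where the limma adjusted p was under 0.05. Filled points are seen in the Dicer KO panel only, and the factor panels run between -0.31 (Sox9) and 0.48 (Yars in Pbx3).

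Across the 12 exonic libraries the members followed a shared pattern to different degrees. The Pearson correlation of each with the mean of the other 9, in centred log2 RPM, was highest for Nars (0.92) and Eprs (0.85) and lowest for Mars (0.37). Among 9575 other genes compared, the 5 most like the mean of the 10 were Pppde2 (0.95), Psat1 (0.94), an enzyme of serine synthesis, Itsn2 (0.94), Met (0.93), the hepatocyte growth factor receptor, and Pafah1b1 (0.93). Psat1 had 1217 and 1018 RPM in Dicer KO libraries, against 554 and 517 in Dicer WT libraries. The 12 points share 6 groups and the depth and batch of their libraries, and with 10 genes pooled the mean reflects the KO to WT contrast along with differences between libraries of a group. Those differences were visible. Tars was higher in library 1 than in library 2 in 6 of 6 groups, by 0.04 to 0.44 on the log2 scale. The same held for Iars, by 0.06 to 0.38. Libraries were numbered from the data so that their shared difference runs the same way in each group. The like sign is therefore partly built in, and the share of all genes that show it was not counted.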

How the data were processed

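The 10 members and all gene lists were chosen with earlier results of these data known. The submitters' processing notes name Bowtie2, the mm9 build and DESeq 1.10.1. The deposited tables hold, for exonic and intronic reads separately, signal columns of read counts that the authors divided by size factors and averaged over each group. They also give the authors' fold change (the ratio of the means, Dicer KO over Dicer WT or factor over vector), its log2 value and their p-values, per the file headers. No source used here names the gene annotation or the rule that assigned reads. The labels list 1 sample per group, but the group means fit whole reads of 2 libraries, and the reads of 2 libraries were recovered uniquely for 100% of genes at a tolerance of 1e-09. On simulated data all of 5000 genes were recovered. Nothing says that the 2 libraries come from separate cultures, and p-values then reflect just the spread between them, which may be technical. Library numbers 1 and 2 follow the shared difference between libraries of a group, with the members left out, and do not come from the labels. Correlations of that difference were 0.30 to 0.81 between groups and 0.67 to 0.88 between exonic and intronic reads of a group. The tables hold group means, so limma 3.58.1 (R 4.3.3, trend on mean level) was run on log2 of the recovered normalised count plus 1. It took genes with a mean of at least 50, 2 libraries against 2, with Benjamini-Hochberg adjustment over all genes and a threshold of 0.05. The test was also run on simulated counts with the same variability setting for every gene and no shared difference between libraries. That run therefore does not cover the shared differences between libraries seen here. All 10 members were named in every comparison, and of other lists up to 4 genes with the largest change that passed, and every other cytosolic or scaffold gene that passed. Genes named outside this rule include Kars, Farsa, Qars, Dars, Atf4, Eif2ak4 and Tap1. None of the columns was left without a group (0). Promoter and exon annotation came from RefSeq (GRCm38.p6) and GENCODE M21, not from mm9. A blood marker gene is not reported here.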

Additional observations from a re-analysis of the deposited data

How the results depend on the processing

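No paired analysis was possible because the labels list 1 sample per group and number no replicates. A term for library order, taken from the data and a hint only (a replicate block of a kind), gave 9 synthetases called in Dicer KO exonic reads (each but Mars), where 47.2% of all genes passed, 7 in intronic reads (30.5% of all genes) and 2 in the exonic minus intronic difference (23.8%). It gave 1 each in Pbx3 exonic (Yars, 6.07% of all genes) and Tead4 intronic reads (Gars, lower, 16.2%). In Dicer KO exonic reads the 4 calls became 1 by limma without the trend, where 13.1% of all genes passed. They were 2 in the authors' test, where 11% of genes with reads passed, and 3 with no minimum, where 13.3% did. They stayed 4 with other pseudocounts (16.6% of all genes), minimum means of 10 (17.6%) or 200 (14.9%), or scaling to total reads (17.1%). In intronic reads, scaling to total reads gave 2, where 6.21% of all genes passed. Leaving out 1 library at a time gave 0 to 3 calls in exonic and 0 to 3 in intronic Dicer KO reads and 0 to 1 in Tead4 exonic reads, and the count of all genes called in Dicer KO exonic reads was 535 or 597 without a KO library. An arm left with 1 library is assumed to vary like the other. No synthetase that had passed changed sign under any alternative run. Among differences that had not passed, Mars in Pbx3 exonic reads was 0.0028 in the authors' test and 0.0022 in a fit over the 4 transfected groups, against -0.00021, and Aars in the exonic minus intronic difference was -0.017 with scaling to total reads; the cause was not tested.

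With 1 library left out, the following changed sign, given as lowest to highest log2 value. In Dicer KO exonic reads, Mars ran from -0.050 to 0.20. In Dicer KO exonic minus intronic, Aars ran from -0.051 to 0.10, Sars from -0.0073 to 0.091, Nars from -0.20 to 0.051, Yars from -0.080 to 0.38 and Eprs from -0.039 to 0.12. These exonic minus intronic ranges rest on the inferred pairing of libraries. In Pbx3 exonic reads, Mars ran from -0.095 to 0.094, Tars from -0.066 to 0.13, Eprs from -0.14 to 0.072 and Iars from -0.14 to 0.19. In Pbx3 intronic reads, Sars ran from -0.0054 to 0.12, Mars from -0.21 to 0.24, Eprs from -0.11 to 0.032 and Iars from -0.092 to 0.20. In Sox9 exonic reads, Wars ran from -0.039 to 0.25 and Yars from -0.065 to 0.20. In Sox9 intronic reads, Aars ran from -0.14 to 0.019, Sars from -0.0022 to 0.15, Wars from -0.19 to 0.11, Yars from -0.074 to 0.065, Tars from -0.22 to 0.037 and Iars from -0.23 to 0.088. In Tead4 exonic reads, Wars ran from -0.23 to 0.045, Tars from -0.16 to 0.034, Eprs from -0.15 to 0.057 and Iars from -0.029 to 0.29. In Tead4 intronic reads, Sars ran from -0.054 to 0.074 and Eprs from -0.17 to 0.015. With 2 libraries a group, differences of this size cannot be told from 0.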
